A study of Homo sapiens with 4 samples.

Results

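The miR-181 family was followed in small RNA sequencing of extracellular vesicles (EVs) shed by MDA-MB-231, a long-established cell line from a human triple-negative breast tumour. Its 4 guide strands, hsa-miR-181a-5p, hsa-miR-181b-5p, hsa-miR-181c-5p and hsa-miR-181d-5p, were chosen by name, and they are 4 of the 539 miRNAs listed for both replicates and of the 1586 named miRNAs listed for either. Unmodified MDA-MB-231 cells, grown with 10% serum, were kept for 12 h in complete medium freed of EVs (the group 231 EV, 2 libraries) or in medium without glucose (231 -G EV, 2 libraries), and EVs were pelleted at 110000 × g for 70 min. For the 2 libraries numbered 1, RNA modifications were removed beforehand per the labels and inserts ran from 14 to 40 nt, while for the 2 numbered 2 the labels name a TruSeq kit for the RNA and an NEBNext small RNA kit for the library. Whether their RNA was pretreated as well is not stated. Each replicate number is therefore a pair of libraries with a shared preparation, and the preparation cannot be told apart from anything else that differed between the replicates. Nothing in the labels says that the replicates came from separate cultures, so p-values measure the spread between these libraries, which may be technical.

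A miRNA is cut from a hairpin precursor, and the strand that is mainly kept, the guide, directs silencing of mRNAs that pair with its seed, bases 2 to 8. The opposite strand of the hairpin, the passenger, is mostly degraded. The miR-181 guides share a seed, so they can address overlapping sets of mRNAs. The family is known for its roles in the maturation of lymphocytes, where miR-181a tunes the response of T cells to antigen, and it has been studied in epithelial-mesenchymal transition in breast cancer.

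The guides are shown because the family is defined by their seed, given in capitals, and because the counts separate members that differ by a few bases outside it. Sequences and positions are those of RefSeq on GRCh38.p14, where all 4 guides were matched.
hsa-miR-181a-5p: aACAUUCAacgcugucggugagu
hsa-miR-181b-5p: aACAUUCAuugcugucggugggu
hsa-miR-181c-5p: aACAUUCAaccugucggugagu
hsa-miR-181d-5p: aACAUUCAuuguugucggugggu

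Counted from the 5′ end, miR-181a-5p and miR-181b-5p differed at 3 positions (A9U, C10U and A21G, with the base of miR-181a-5p first). MiR-181b-5p and miR-181d-5p differed at 1 position (C12U). MiR-181c-5p was miR-181a-5p without the base at position 11, at a length of 22 nt against 23 nt for the other guides. Across the mature human miRNAs of the reference, 5 had this seed, and the fifth, hsa-miR-4262, was not analysed here. With so few differing bases, a sequencing error can move a read from 1 member to another, and how the counting split such reads is not given in the sources used here.

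The guides come from 3 clusters of 2 hairpin genes. On chromosome 1 (minus strand), MIR181A1 at chr1:198859044-198859153 and MIR181B1 at chr1:198858873-198858982 lie 61 bp apart in an intron of the lincRNA gene MIR181A1HG in the GENCODE v29 annotation. On chromosome 9 (plus strand), MIR181A2 at chr9:124692442-124692551 and MIR181B2 at chr9:124693710-124693798 lie 1158 bp apart in an intron of MIR181A2HG, and in an intron of NR6A1 on the opposite strand. On chromosome 19 (plus strand), MIR181C at chr19:13874699-13874808 and MIR181D at chr19:13874875-13875011 lie 66 bp apart in an intron of NANOS3. The guides miR-181a-5p and miR-181b-5p are each made with the same letters on chromosomes 1 and 9, so their reads cannot be given to a locus. MiR-181c-5p and miR-181d-5p are encoded on chromosome 19 alone, and whether the few reads counted for them came from there was not tested.

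Depth set what could be seen of the family. In replicate 1 the total was 18397 reads for 231 EV and 15597 for 231 -G EV, and in replicate 2 it was 224966 and 170894. Levels are given in CPM, reads per 1000000 miRNA reads of a library. A count of 0 allows up to 3 reads, which is 163 and 192 CPM in replicate 1 and 13.3 and 17.6 CPM in replicate 2. The sources used here name no molecular identifiers, so PCR copies may count as separate reads, and every interval, limit and read test covers counting error alone. A single miRNA, hsa-miR-182-5p, took 51% of the reads in replicate 1 of 231 EV against 2.73% in its partner, and 0.254% and 0.25% in the replicate 2 libraries. The red blood cell miRNA hsa-miR-451a took 19.4% and 40.8% of replicate 1, but 0.131% and 0.0398% of replicate 2. Every share in replicate 1 is set against these totals.

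In replicate 1, miR-181a-5p had 17 reads with glucose (231 EV) and 23 without it (231 -G EV), and in replicate 2 it had 277 and 118. These were 924 CPM (95% Wilson interval 577 to 1479), 1475 CPM (983 to 2212), 1231 CPM (1095 to 1385) and 690 CPM (577 to 827). The library without glucose was thus the highest of the 4 in replicate 1 and the lowest in replicate 2, and the 2 groups overlapped.

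MiR-181b-5p had 5 and 6 reads in replicate 1 and 181 and 142 in replicate 2. Its levels in replicate 1 were 272 CPM (116 to 636) with glucose and 385 CPM (176 to 839) without it, and 805 CPM (696 to 931) and 831 CPM (705 to 979) in replicate 2. By their point values, both libraries of replicate 2 lay above both of replicate 1, while the 2 media overlapped.

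The members encoded on chromosome 19 were rare. MiR-181c-5p was at 0 in both libraries of replicate 1 and had 4 reads (17.8 CPM, 6.91 to 45.7) in 231 EV and 2 reads (11.7 CPM, 3.21 to 42.7) in 231 -G EV of replicate 2. MiR-181d-5p had 0 reads and 1 read (64.1 CPM, 11.3 to 363) in replicate 1, and 3 reads (13.3 CPM, 4.54 to 39.2) and 1 read (5.85 CPM, 1.03 to 33.1) in replicate 2. The levels in replicate 2 were under the limit that a count of 0 allows in replicate 1, so at that depth a level in replicate 1 equal to or below that of replicate 2 could not be told from 0.

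**Figure D1:**
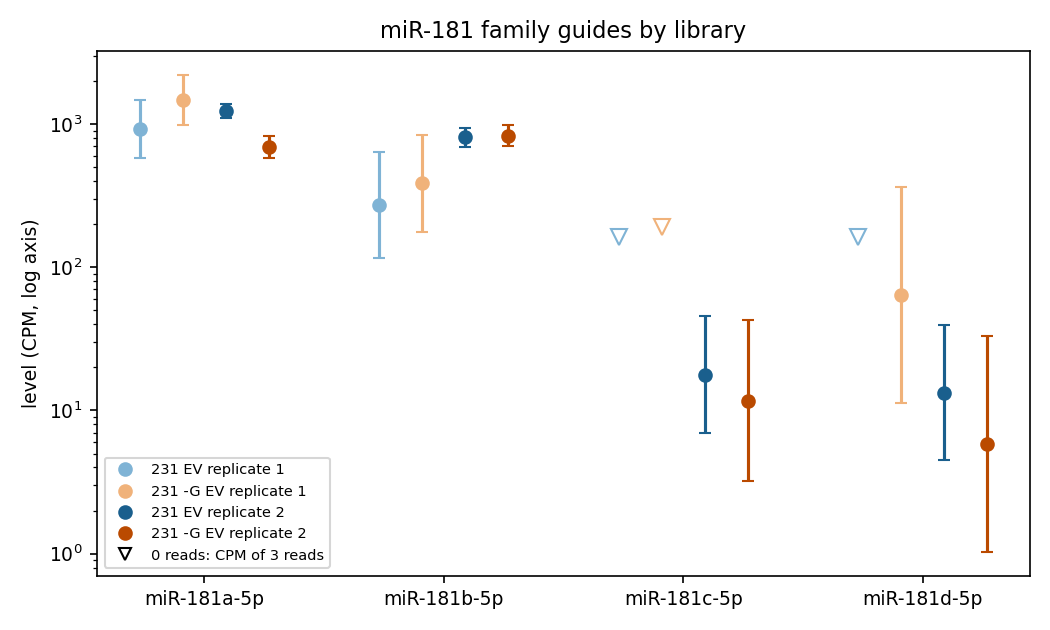
Level of each guide (y axis, CPM, log scale) in the 4 libraries, with 95% Wilson intervals. Open triangles mark libraries with 0 reads, drawn at the CPM of 3 reads. MiR-181a-5p lies between 690 and 1475 CPM, while miR-181c-5p and miR-181d-5p rest on 4 reads or fewer in every library.

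In each library miR-181a-5p and miR-181b-5p were the leading members. In replicate 1, miR-181a-5p ranked 54 among the 484 features detected with glucose and 61 among the 453 without it, and 68 among 531 and 82 among 492 in replicate 2. MiR-181b-5p ranked 113 and 116 in replicate 1, and 82 and 77 in replicate 2. The intervals of miR-181a-5p and miR-181b-5p were apart in 231 -G EV replicate 1 and in 231 EV replicate 2, with miR-181a-5p higher, and they overlapped in the other 2 libraries. Those of miR-181c-5p and miR-181d-5p overlapped wherever either was detected.

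Summed over the guides, the family of replicate 1 had 22 reads with glucose (0.12% of the library, 0.079 to 0.181) and 30 reads without it (0.192%, 0.135 to 0.274). The replicate 2 libraries had 465 reads (0.207%, 0.189 to 0.226) and 263 reads (0.154%, 0.136 to 0.174). The sum was lower without glucose in replicate 2, with intervals that were apart, and higher in replicate 1, with intervals that overlapped. In replicate 1 the direction depended on hsa-miR-182-5p. The share in 231 -G EV over that in 231 EV was 1.61 (exact interval 0.897 to 2.93) with all reads in the totals and 0.811 once hsa-miR-182-5p was removed from them.

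The make-up of the family does not depend on the library total. MiR-181a-5p of replicate 1 took 77.3% (56.6 to 89.9) of the family's reads with glucose and 76.7% (59.1 to 88.2) without it. In replicate 2 it took 59.6% (55 to 63.9) in 231 EV and 44.9% (39 to 50.9) in 231 -G EV. There were 3.4 and 3.83 reads of miR-181a-5p for each read of miR-181b-5p in replicate 1, and 1.53 and 0.831 in replicate 2. In replicate 1 the intervals of the 2 media were wide and overlapped. In replicate 2, miR-181a-5p led in 231 EV, whereas miR-181b-5p led without glucose with 54% (48 to 59.9) of the reads against 38.9% (34.6 to 43.4). Together miR-181c-5p and miR-181d-5p gave 0 of 22, 1 of 30, 7 of 465 and 3 of 263 guide reads.

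**Figure D2:**
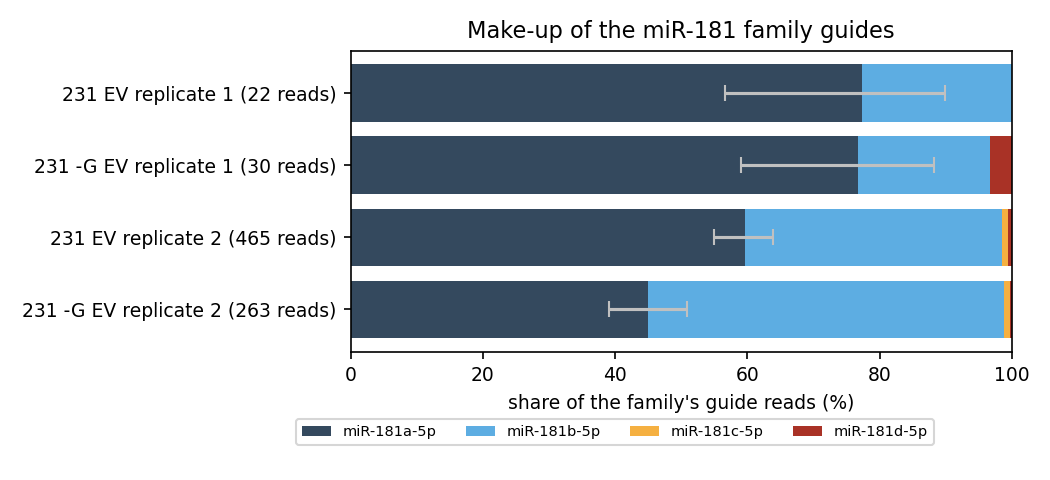
Share of the 4 guides in the family's reads (x axis, %) for each library, with the 95% Wilson interval of miR-181a-5p as a light grey bar. The share of miR-181a-5p is 77.3% and 76.7% in replicate 1 and 59.6% with and 44.9% without glucose in replicate 2.

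To ask whether glucose withdrawal changed the family in EVs, 231 -G EV was compared with 231 EV over both pairs by edgeR's quasi-likelihood test on the counts, with the replicate number as a block. None of the 4 guides passed an adjusted p of 0.05 with an absolute log2 fold change above 1, and among all 384 miRNAs tested 0 passed (0%), with 5 at an unadjusted p under 0.05. DESeq2 and limma also called 0, with 6 and 13 at an unadjusted p under 0.05. Relative log expression scaling, hsa-miR-182-5p out of the totals and no filter on low counts each gave 1 call, in each case of a miRNA outside the family guides. The log2 fold change was -0.13 (SE 1.00) for miR-181a-5p and 0.22 (SE 1.07) for miR-181b-5p, against a median of 0.20 over all miRNAs tested. MiR-181c-5p and miR-181d-5p gave -0.55 (SE 3.09) and 0.05 (SE 6.63), on 6 and 5 reads in all. All 4 adjusted p were 0.999. Each SE was worked back as the absolute log2 fold change over the square root of the test's F statistic. On few reads it is unstable, and for miR-181d-5p it was 2.62 with TMM scaling. These standard errors leave room for a change of 2-fold in either direction in every guide, so these fits do not show that the level stayed the same. The sign for miR-181b-5p turned with TMM scaling (-0.15) and that for miR-181a-5p with hsa-miR-451a left out of the totals (0.09). TMM moved the median of all miRNAs to -0.14.

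Within each pair, reads were compared by Fisher's exact test, which compares 2 libraries and not the media. In pair 1, 0 of the 3 guides with a read differed, where 65 of the 670 miRNAs with a read did (9.7%). MiR-181c-5p, with 0 reads in both libraries, was not tested. MiR-181d-5p, with 1 read against 0, could not have passed, and miR-181b-5p rested on 5 and 6 reads. MiR-181a-5p gave a ratio of 231 -G EV over 231 EV of 1.6 (exact interval 0.816 to 3.18, Fisher's exact adjusted p = 0.734) and miR-181b-5p of 1.42 (0.36 to 5.86, exact adjusted p = 1). In pair 2, miR-181a-5p was lower without glucose, at a ratio of 0.561 (0.448 to 0.698, Fisher's exact adjusted p = 6.08e-07), and it was the only guide that differed, where 115 of 618 miRNAs did (18.6%). MiR-181b-5p of the same pair was at 1.03 (0.823 to 1.29, exact adjusted p = 1). MiR-181c-5p and miR-181d-5p were at 0.658 (0.0595 to 4.59) and 0.439 (0.00836 to 5.46).

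The ratios of pair 1 turned with the totals. Once hsa-miR-182-5p was removed from them, miR-181a-5p was at 0.804 (0.411 to 1.6) and miR-181b-5p at 0.713 (0.181 to 2.95). With hsa-miR-451a left out instead, they were at 2.17 (1.11 to 4.33) and 1.93 (0.49 to 7.98). In pair 2 the same steps left miR-181a-5p at 0.561 and 0.56. With and without glucose in that pair, hsa-miR-182-5p took 0.254% and 0.25% of reads and hsa-miR-451a 0.131% and 0.0398%. Neither step could thus move a ratio of pair 2 by much. Beside the reads of hsa-miR-16-5p alone, which took 7.04% of reads with glucose and 11.1% without it there, miR-181a-5p was at 0.356 (0.284 to 0.443) and miR-181b-5p at 0.655 (0.522 to 0.821). In pair 1 the same step went the other way, with miR-181a-5p at 2.37 (1.21 to 4.72) and miR-181b-5p at 2.1 (0.534 to 8.7), and 0 guides differed there by Fisher's exact test beside hsa-miR-16-5p. These intervals take the reads of hsa-miR-16-5p as fixed, which were 70 and 40 in pair 1. Of these scalings, only that beside hsa-miR-16-5p could move the ratios of pair 2 by much. MiR-181a-5p of pair 2 was lower with it too, and the place of miR-181b-5p depended on the scaling.

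**Figure D3:**
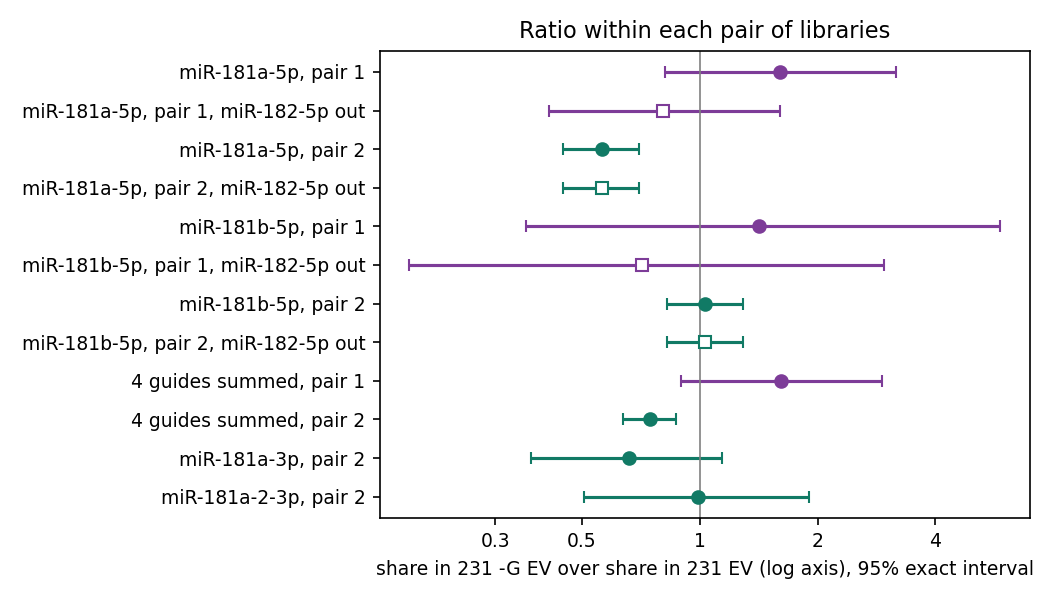
Share in 231 -G EV over the share in 231 EV (x axis, log scale) within each pair, with 95% exact intervals, pair 1 in purple and pair 2 in green. Open squares leave hsa-miR-182-5p out of the totals. For miR-181a-5p this moves pair 1 from 1.6 to 0.804. Pair 2, where hsa-miR-182-5p took 0.254% of reads with glucose and 0.25% without it, stays at 0.561.

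Neither direction was shared by the pairs at a fold of 1.5. On CPM plus 1, 0 of the 4 guides were above 1.5 in both pairs or below its inverse in both pairs, where 75 of the 539 miRNAs listed for both were (13.9%). MiR-181a-5p, at folds of 1.6 and 0.561, and miR-181d-5p, at 65.1 and 0.478, went in opposite directions, as did 72 of the 539 (13.4%). The fold of 65.1 for miR-181d-5p rests on a single read against 0. A miRNA with 0 reads in both libraries of a pair, like miR-181c-5p in pair 1, cannot pass either rule. Of the 539 miRNAs, 295 had a read in each pair, so both shares count miRNAs that could not pass.

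Between the preparations, replicate 2 was compared with replicate 1 in the same fit. Among all 384 miRNAs, 66 were called (17.2%), 37 higher and 29 lower in replicate 2, and 0 of the 4 guides were among them. The balance turned with the scaling, to 12 higher and 25 lower with hsa-miR-451a out of the totals against 56 and 33 with TMM, while 0 guides were called with either. MiR-181a-5p was at a log2 fold change of -0.34 (SE 1.00, adjusted p = 0.832 by edgeR) and miR-181b-5p at 1.33 (SE 1.10, adjusted p = 0.508 by edgeR), against a median of 0.75 over all tested. MiR-181d-5p was at -1.48 (SE 3.65). No fold is given for miR-181c-5p, which was at 0 in both libraries of replicate 1. The median depends on the filter, since miRNAs with reads in 1 replicate alone, like miR-181c-5p, are among the 384. Among the 154 miRNAs above 0 in all 4 libraries, the median was 0.16 and 74 were called, 37 higher and 37 lower. MiR-181a-5p and miR-181b-5p were not called there, at -0.34 and 1.33. The point values of miR-181b-5p were apart between the replicates, but the interval of 231 -G EV replicate 1, on 6 reads, overlapped both intervals of replicate 2.

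**Figure D4:**
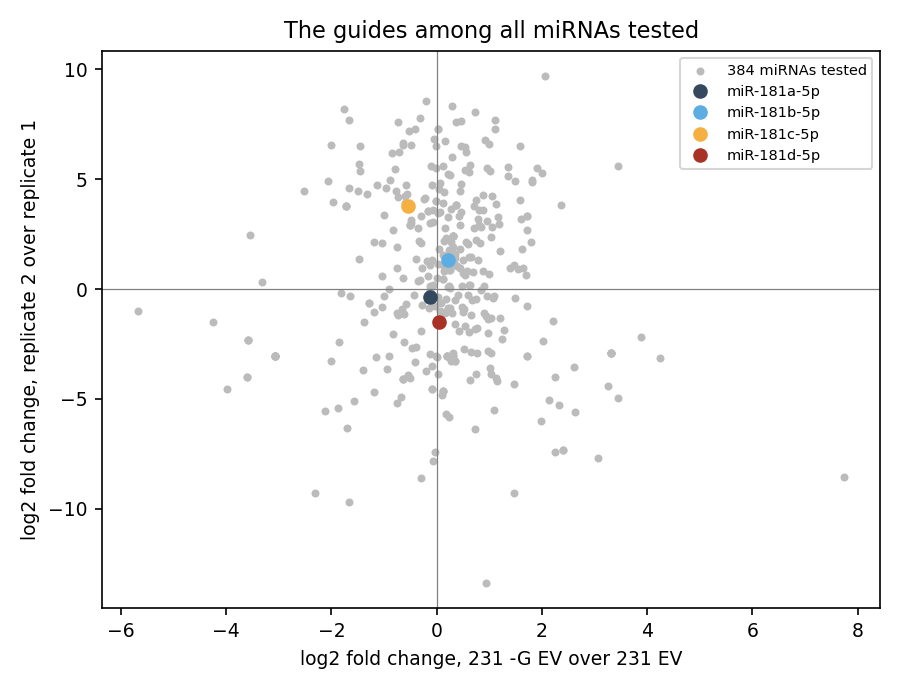
Log2 fold change between the media (x axis) and between the replicates (y axis) for the 384 miRNAs tested by edgeR (grey), with the guides in colour. MiR-181a-5p lies at -0.13 and -0.34 and miR-181b-5p at 0.22 and 1.33, and none of the guides was called on either axis.

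The passenger strands tell the loci of miR-181a apart, since they differ at 3 positions, given in capitals. The first comes from MIR181A1 (chr1:198859069-198859090, minus strand) and the second from MIR181A2 (chr9:124692518-124692539, plus strand).
hsa-miR-181a-3p: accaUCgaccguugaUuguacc
hsa-miR-181a-2-3p: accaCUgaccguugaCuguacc

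MiR-181a-3p had 2 reads in each library of replicate 1, and 42 (187 CPM, 138 to 252) in 231 EV and 21 (123 CPM, 80.4 to 188) in 231 -G EV of replicate 2. MiR-181a-2-3p was at 0 in both libraries of replicate 1 and had 24 (107 CPM, 71.7 to 159) and 18 reads (105 CPM, 66.6 to 167) in replicate 2. Both loci thus gave reads in replicate 2, and the strand from chromosome 1 made up 63.6% (51.6 to 74.2) of the 2 in 231 EV and 53.8% (38.6 to 68.4) in 231 -G EV, with overlapping intervals. The ratio of 231 -G EV over 231 EV in pair 2 was 0.658 (0.37 to 1.14, Fisher's exact adjusted p = 0.424) for miR-181a-3p and 0.987 (0.505 to 1.9, exact adjusted p = 1) for miR-181a-2-3p. Passengers were 19.2% (15.4 to 23.7) of all miR-181a reads with glucose and 24.8% (18.7 to 32.1) without it in replicate 2. These intervals overlapped too.

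Other passengers were near the limit of detection. MiR-181b-3p had 1 and 0 reads in replicate 1 and 4 and 0 in replicate 2. MiR-181b-2-3p, listed for replicate 2 alone, had 1 read in 231 EV and 5 in 231 -G EV, a ratio of 6.58 (0.737 to 311, Fisher's exact adjusted p = 0.322). MiR-181c-3p, also listed for replicate 2 alone, had 2 and 3 reads. MiR-181d-3p was not analysed here. None of the passengers with a fit over both pairs passed the test between media or between replicates.

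The profile over the 4 libraries was compared among the 79 miRNAs with at least 5 reads in each, by the distance of their centred log2(CPM + 1) values. This is a description over 4 libraries that share their totals. Outside the family, hsa-let-7f-5p was nearest to miR-181a-5p (distance 0.149 on the log2 scale), with 390, 457, 5780 and 2511 reads in the order used above, followed by hsa-miR-194-5p (0.232), hsa-miR-146b-5p (0.574), hsa-miR-146a-5p (0.589) and hsa-let-7c-5p (0.708). Nearest to miR-181b-5p were hsa-let-7d-5p (0.444), hsa-miR-30c-5p (0.528), hsa-miR-183-5p (0.571), hsa-miR-23b-3p (0.602) and hsa-miR-101-3p (0.672). The guides miR-181a-5p and miR-181b-5p lay 1.79 apart, and miR-181b-5p was in place 37 of 78 by its distance to miR-181a-5p.

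Markers of MDA-MB-231 and of other cells moved with the libraries. Of 4 miRNAs abundant in MDA-MB-231 (miR-21-5p, miR-221-3p, miR-222-3p and miR-100-5p) all were detected in every library, at a summed 2.09% and 3.01% of reads in replicate 1 and 35.9% and 28.7% in replicate 2. The 7 epithelial markers of the miR-200 group, miR-203a-3p and miR-205-5p summed to 0.114% and 0.583% in replicate 1 and to 0.0867% and 0.0205% in replicate 2. MiR-205-5p was at 0 in 231 EV replicate 1 and miR-203a-3p at 0 in 231 -G EV replicate 2. The sum covers members that went different ways, with a log2 fold change between media of -3.54 (SE 1.82) for miR-205-5p and 1.09 (SE 1.21) for miR-200b-3p. The 4 red blood cell markers summed to 20% and 42.8% in the libraries of replicate 1 and to 0.253% and 0.079% in replicate 2, with miR-144-5p at 0 in both libraries of replicate 1. The 4 white blood cell markers summed to 0.0435% and 0.173% in replicate 1 and to 0.82% and 0.393% in replicate 2. Of these, miR-150-5p was at 0 in 231 EV replicate 1. The liver miRNA miR-122-5p was at 0.0924% and 0.308% in replicate 1 and at 0.132% and 0.0527% in replicate 2. With all reads in the totals, each of the 5 lists was higher without glucose in replicate 1 and lower in replicate 2. Removing hsa-miR-182-5p from the totals, a step chosen after seeing the data, scales every ratio of pair 1 by the same factor, so which lists turn is set by the size of their first ratio. In replicate 1 the shares were then 4.27% with glucose and 3.09% without it for the MDA-MB-231 list, 40.9% and 44% for red blood cells, 0.0887% and 0.178% for white blood cells, 0.233% and 0.6% for the epithelial markers and 0.189% and 0.316% for miR-122-5p. The part of other cells in the miR-181 levels was not tested.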

How the data were processed

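The authors deposited read counts per miRNA in a table for each replicate, beside values scaled to the library total and headed CPM (replicate 1) and TPM (replicate 2). Both deposited scalings, CPM and TPM, equalled the count over the library total times 1000000. Per the methods of the study, reads were trimmed, cleared of other small RNA classes and matched to miRBase. The submitters' processing notes name FastQC, cutadapt, Bowtie, Bowtie2, StringTie, edgeR and hg38, without their roles.

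EdgeR 4.0.16 (R 4.3.3) was run on the counts of the 384 miRNAs listed for both replicates and above 0 in at least 2 libraries, with library totals as deposited, the replicate number as a block, two-sided p-values and Benjamini-Hochberg adjustment. The pairing came from the labels, where the number marks the preparation. Same-numbered libraries deviated together from their group means (r = 0.59 over 384 miRNAs). Of these, 154 were above 0 in all 4 libraries, and miRNAs with reads in both libraries of 1 replicate alone deviate together by construction. With 2 libraries in a group the deviations are mirror images, so both pairs give the same r. It is therefore no test of a shared preparation. Fisher's exact tests used SciPy 1.17.1. The edgeR fit and the read tests were first tested on simulated data with known changes, where edgeR called a minority of large changes in most draws and the share varied widely between draws. Alternatives were other scalings, filters and tools (DESeq2 1.42.0, limma 3.58.1), and leaving out libraries. The miRNAs named are the guides, their passengers, same-seed miRNAs, scaling references, markers and the 5 nearest profiles of each guide with at least 5 reads in each library. Members and lists were chosen with earlier results of these data known.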

Additional observations from a re-analysis of the deposited data

Results flagged for a closer look

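The ratio of 231 -G EV over 231 EV of hsa-miR-181a-5p differed between the pairs (1.6 in pair 1 and 0.561 in pair 2) in an exact test of the reads over both pairs, with an exact adjusted p = 0.0214 over 295 miRNAs with a read in each pair. The test was chosen after seeing the data, compares libraries and covers counting error only, and 41 of the 295 (13.9%) passed it. Once hsa-miR-182-5p was taken out of the totals, the exact adjusted p was 0.862, with TMM scaling it was 0.625, and with hsa-miR-451a taken out in its place it was 0.000651.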

How the results depend on the processing

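No guide was called between media or between replicates under any alternative run, and none passed the fold threshold the same way in both pairs. Without the replicate block the log2 fold change between media was -0.01 for miR-181a-5p, 0.17 for miR-181b-5p, -0.49 for miR-181c-5p and 0.87 for miR-181d-5p, and the replicate block changed no call of a guide. Signs turned between media with hsa-miR-451a left out of the totals (miR-181a-5p 0.09), TMM (miR-181b-5p -0.15, miR-181d-5p -0.19), relative log expression scaling (miR-181d-5p -0.04), hsa-miR-182-5p left out (miR-181b-5p -0.14, miR-181d-5p -0.15) and DESeq2 (miR-181b-5p -0.01), and between replicates with limma (miR-181d-5p 0.30). Leaving out a library or a pair gave, between media, -0.83 to 0.67 for miR-181a-5p, -0.51 to 1.17 for miR-181b-5p and -1.19 to 3.50 for miR-181d-5p, and between replicates -0.79 to 0.06 for miR-181a-5p and -2.58 to 3.59 for miR-181d-5p. A library left alone in its group is assumed to vary like the others. With other tools, miR-181d-5p between media was at 2.48 with limma and 0.50 with DESeq2, against 0.05 in the main fit. In pair 1 the family ratio was 0.811 without hsa-miR-182-5p and 0.896 with TMM, and in the same order miR-181a-5p was at 0.804 and 0.889 and miR-181b-5p at 0.713 and 0.788. In pair 2, beside hsa-miR-16-5p, the family ratio was 0.472, miR-181b-5p was at 0.655 and 2 guides differed in place of 1, and TMM put miR-181b-5p at 0.973. The guides in opposite directions fell from 2 to 1 with a pseudocount of 10 or 100, a threshold of 2, TMM, or hsa-miR-182-5p left out. TMM for these ratios and hsa-miR-16-5p for the family were chosen after seeing the data. Calls between replicates over all miRNAs ran from 0 (limma, with 145 at an unadjusted p under 0.05) to 90 (231 -G EV replicate 1 left out) around 66. The cause was not tested. Depth limits replicate 1, where a read is worth 54.4 or 64.1 CPM.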
